A study of Homo sapiens with 9 samples.

Results

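Transcripts of 9 genes of the NRF2 antioxidant defence were followed in HMEC-1 cells treated with AMI-1, AMI-5 or solvent. They were SLC7A11, GCLM, GCLC, NQO1, HMOX1, TXNRD1, SRXN1, NFE2L2 and KEAP1, matched by symbol among the 18293 genes that both deposited tables hold, and all 9 were present and passed the filter on low counts. HMEC-1 is an immortalised line of human dermal microvascular endothelial cells, kept here in MCDB131 medium with 5.5 mM glucose. The groups were AMI-1 at 100 µM in DMSO, AMI-5 at 100 µM in DMSO, and DMSO alone as control, each for 16 h, with 3 libraries per group and 9 in all. The study set out to profile how endothelial transcripts respond when methyltransferases are inhibited, and both compounds were used as such inhibitors. The genes were chosen by name with earlier AMI-5 results of these libraries known, so their values with AMI-5 are given as a description without a test. Values with AMI-1 against control were tested, although that comparison uses the same control libraries.

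NRF2, the protein of NFE2L2, is a transcription factor that KEAP1 holds in the cytoplasm and delivers for degradation. Oxidants and electrophiles modify cysteines of KEAP1, and NRF2 then accumulates, pairs with small MAF proteins and binds antioxidant response elements. Its targets import cystine, make glutathione, reduce quinones, degrade haem and recycle thioredoxin and peroxiredoxins. In endothelium these enzymes are known for limiting oxidant injury of the vessel wall. Because NRF2 is regulated mainly as a protein, its own transcript is not a readout of its activity.

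Promoter letters were compared because the element that NRF2 binds is known from several of these genes. RefSeq promoters on GRCh38.p14 were matched by symbol for 7 of the 9 genes, 10 promoters in all, each running from 250 bases before the start to 50 bases after it. The search used the core TGACNNNGC on both strands, which 4687 of 35116 listed promoters hold (13.3%), and the same core followed by A, which 1118 hold (3.18%). GCLM had 1 match, at -34 to -26 from the start, on the strand opposite to the gene and followed by A. TXNRD1 had 2 matches at its first listed start (-99 to -91 and -8 to 1) and 1 at the other (-102 to -94), the last followed by A. KEAP1 had 2 at its first listed start, at -54 to -46 and at -31 to -23, the second followed by A, and 0 at its other start. These letters were not in the windows of GCLC, NQO1, SRXN1 and NFE2L2, which says nothing of elements elsewhere. The windows that hold a match are printed from 120 bases before the start to 10 after. They run 5′ to 3′ on the gene's strand, with the core in capitals. Whether these letters bear on the transcript levels was not tested.
GCLM, chr1:93909421-93909550, minus strand: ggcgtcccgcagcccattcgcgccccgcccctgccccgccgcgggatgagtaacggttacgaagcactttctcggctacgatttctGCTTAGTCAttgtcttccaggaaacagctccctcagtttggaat
TXNRD1, first listed start, chr12:104215659-104215788, plus strand: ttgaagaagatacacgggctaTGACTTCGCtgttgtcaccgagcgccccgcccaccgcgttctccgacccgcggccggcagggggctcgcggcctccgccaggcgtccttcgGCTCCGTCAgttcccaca
TXNRD1, other listed start, chr12:104286912-104287041, plus strand: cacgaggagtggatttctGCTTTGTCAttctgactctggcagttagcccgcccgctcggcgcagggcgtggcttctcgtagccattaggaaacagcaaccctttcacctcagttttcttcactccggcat
KEAP1, first listed start, chr19:10502762-10502891, minus strand: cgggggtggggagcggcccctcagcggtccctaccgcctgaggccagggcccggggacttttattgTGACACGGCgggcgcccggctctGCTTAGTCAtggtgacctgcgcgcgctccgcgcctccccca

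Total counts ran from 14454113 to 24693020 per library. Replicate numbers separated the libraries more than treatment did, with 77.2% of the variance pooled over all genes against 11.1% for treatment. After removal of group means, libraries of the same number correlated at 0.431 to 0.871 across genes. Those of different numbers and groups correlated at -0.804 to 0.204. Deviations from a group mean cancel out within the group, which by itself pulls r between different numbers down when same-numbered libraries are alike. All fold changes below therefore come from an edgeR fit of the 9 libraries with replicate number as a block, with levels as CPM, read counts relative to library size after TMM scaling, with a threshold of 0.05 on adjusted p. Without the replicate block edgeR called 0 of 18284 genes in either comparison with control. At an unadjusted p under 0.05 it had 187 genes for AMI-1 and 485 for AMI-5. Both counts are below the 0.05 share of tested genes that would pass if nothing differed. DESeq2 in that design called 3 and 19. Whether a group's libraries are separate cultures is not in the labels, and p-values measure only the spread between these libraries. Of 14 endothelial markers 12 were measured. Their summed level was 1240 to 1614 CPM with AMI-1, 941 to 1337 CPM with AMI-5 and 1149 to 1692 CPM in control, and 9 of the 12 had a lower mean with AMI-5 than in control and 3 a higher one. The VE-cadherin gene CDH5 had a mean of 173.4 CPM with AMI-1, 146.9 CPM with AMI-5 and 177.9 CPM in control, ESAM had 1.56 CPM with AMI-1, 2.80 CPM with AMI-5 and 1.15 CPM in control, and PECAM1 and CLDN5 were not analysed here. Fibroblast markers (5 of 6 measured) summed to 3060 to 4085 CPM with AMI-1, 2411 to 3110 with AMI-5 and 2951 to 4387 in control. Most of this sum was the collagen gene COL1A1, with a mean of 3272 CPM with AMI-1, 2678 with AMI-5 and 3363 in control. Of these 5 markers, 3 had a lower mean with AMI-5 than in control and 2 a higher one. Their part in the results was not tested, and in bulk RNA fewer cells of a type cannot be told apart from less RNA per cell.

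The clearest pattern lay on the AMI-5 side. SLC7A11, GCLM, GCLC, NQO1, HMOX1 and TXNRD1 were higher with AMI-5 than in the same-numbered control library in 3 of 3 pairs. In the fit they were higher by 1.19-fold (GCLC) to 2.18-fold (HMOX1). The share of all genes that were higher in 3 of 3 pairs was not counted. SRXN1 and NFE2L2 differed from control by at most 0.08 on the log2 scale in every pair, and KEAP1 was lower in 3 of 3 pairs. With AMI-1 no gene of the 9 passed the threshold, NQO1 being nearest to it. The median log2 fold change of the 9 was -0.05 with AMI-1 and 0.29 with AMI-5, against -0.00189 and -0.00495 over all 18284 genes tested. The AMI-5 median is a description only, because the 9 were chosen with AMI-5 results of these libraries known. Of all genes tested the fit called 3.44% higher and 7.51% lower with AMI-5, and 0.23% higher and 0.18% lower with AMI-1.

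**Figure D1:**
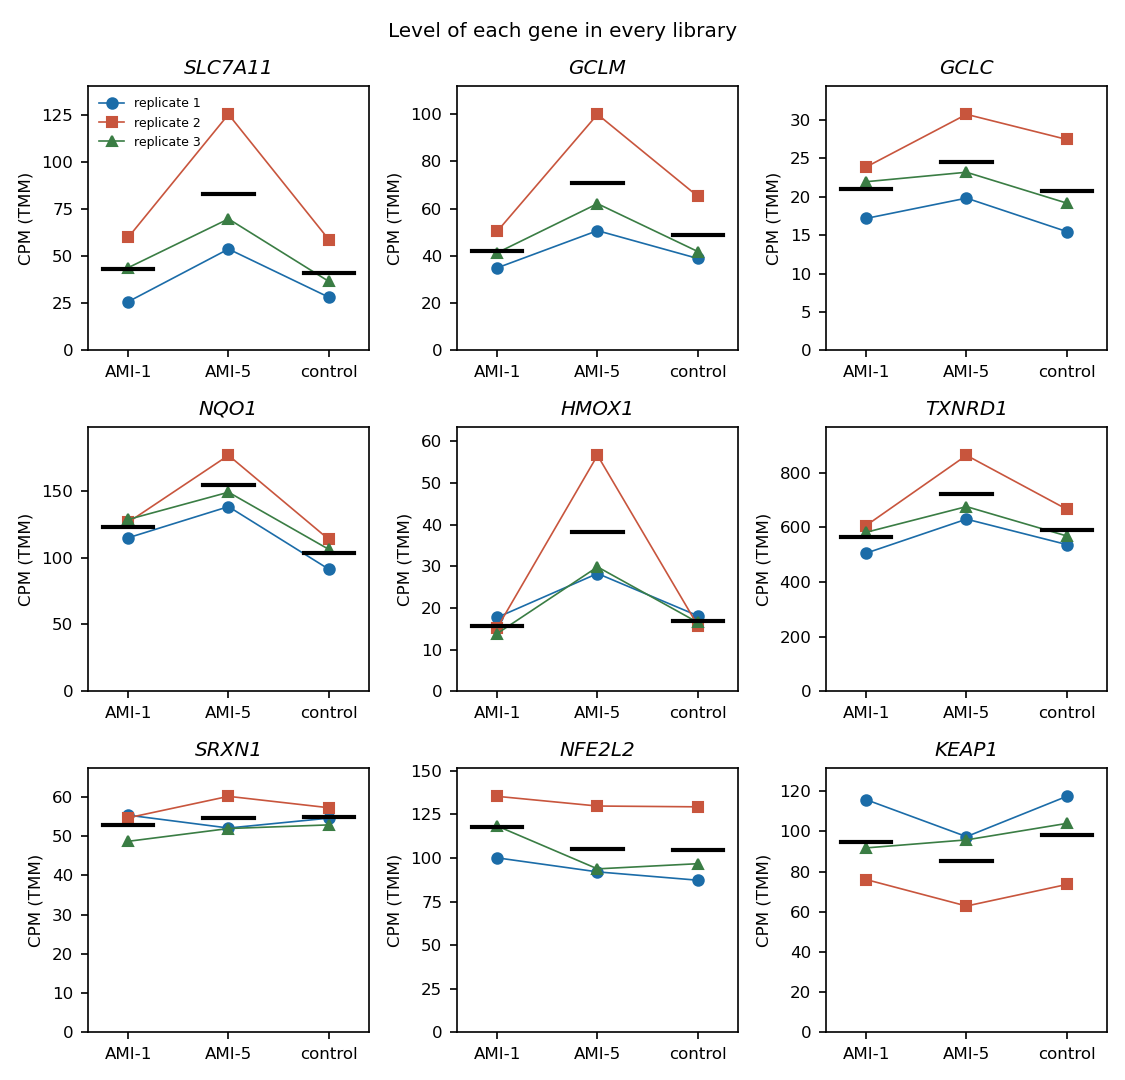
CPM of each of the 9 genes in every library, 1 panel per gene, with AMI-1 left, AMI-5 in the middle and control right. Lines join libraries of the same replicate number and black bars are group means; NQO1 and HMOX1 have all 3 AMI-5 libraries above all 3 control libraries, while SLC7A11 groups overlap but every line runs higher at AMI-5.

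Import of cystine came first among the glutathione genes. SLC7A11 encodes the cystine-glutamate exchanger of system xc-, which supplies the cysteine for glutathione. Its level was 25.8, 59.8 and 43.8 CPM in AMI-1 replicates 1, 2 and 3, 53.7, 125.1 and 69.7 CPM in AMI-5 replicates, and 28.2, 58.7 and 36.6 CPM in control replicates. Replicate 2 was the highest of each group and replicate 1 the lowest, so the AMI-5 range overlapped the others although each AMI-5 library was above its own-numbered partners. Group means were 43.2 ± 17.0 CPM with AMI-1, 82.9 ± 37.5 CPM with AMI-5 and 41.2 ± 15.8 CPM in control (SD, n = 3 each). With AMI-5 the difference from control was 0.93, 1.09 and 0.93 on the log2 scale in the 3 pairs and 0.99 ± 0.08 (SE) in the fit, a 1.99-fold higher level. With AMI-1 it was -0.13, 0.03 and 0.26 in the pairs and 0.07 ± 0.08 in the fit (edgeR adjusted p = 0.806). Replicate number accounted for 51.8% of the variance of SLC7A11 between libraries and treatment for 46.6%, against medians over all genes of 73.2% and 10.8%. Without the block the AMI-5 difference was 1.01 with an SE of 0.42. The antisense gene SLC7A11-AS1, whose reads may not be separable from those of SLC7A11 since the strand of counting is not given in the sources used here, had 3.88 ± 1.71 CPM with AMI-1, 6.20 ± 3.38 CPM with AMI-5 and 3.28 ± 1.65 CPM in control. Its log2 difference from control was 0.27 ± 0.15 with AMI-1 and 0.91 ± 0.14 with AMI-5.

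GCLM and GCLC encode the modifier and catalytic subunits of glutamate-cysteine ligase, the enzyme of the rate-limiting step of glutathione synthesis. GCLM had 34.9, 50.3 and 41.3 CPM in AMI-1 replicates 1 to 3, 50.7, 99.9 and 62.1 CPM in AMI-5 replicates, and 38.9, 65.2 and 41.8 CPM in control replicates. Each AMI-5 library was above its control partner and each AMI-1 library below it, and the AMI-5 range overlapped control but not AMI-1. Means were 42.2 ± 7.75 CPM with AMI-1, 70.9 ± 25.8 CPM with AMI-5 and 48.6 ± 14.4 CPM in control (SD, n = 3 each). The AMI-5 difference from control was 0.38, 0.61 and 0.57 in the pairs and 0.53 ± 0.08 in the fit (1.44-fold). For AMI-1 it was -0.16, -0.37 and -0.02 in the pairs and -0.18 ± 0.08 in the fit (edgeR adjusted p = 0.461), and a correction for transcript GC content brought it to -0.26 with an adjusted p of 0.0152. The same correction brought the AMI-5 value to 0.40 ± 0.06, and that of SLC7A11 to 0.84 ± 0.05. Both transcripts are poor in G and C, 37.3% for GCLM and 35.4% for SLC7A11, against a median of 48.2% over all tested genes, 41.5% over genes called higher with AMI-5 and 58.7% over genes called lower.

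The catalytic subunit moved less than the modifier. GCLC had 17.2, 23.9 and 21.96 CPM in AMI-1 replicates 1 to 3, 19.8, 30.7 and 23.2 CPM in AMI-5 replicates, and 15.5, 27.5 and 19.2 CPM in control replicates. All 3 groups overlapped, and replicate number carried 78.5% of its variance. Its AMI-5 difference from control was 0.36, 0.16 and 0.27 in the pairs and 0.26 ± 0.09 in the fit, while for AMI-1 it was 0.04 ± 0.09 (edgeR adjusted p = 0.909). Per kilobase of its longest transcript GCLM stood at 8.69 CPM with AMI-1, 14.6 CPM with AMI-5 and 10.01 CPM in control, and GCLC at 5.51 CPM with AMI-1, 6.45 CPM with AMI-5 and 5.43 CPM in control. The modifier subunit was thus at the higher length-scaled level in all 3 groups.

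NQO1 encodes the NAD(P)H quinone dehydrogenase that reduces quinones by a pair of electrons at once. It had 114.7, 126.3 and 128.4 CPM in AMI-1 replicates 1 to 3, 138.0, 176.3 and 148.8 CPM in AMI-5 replicates, and 91.2, 113.5 and 106.1 CPM in control replicates. The groups formed 3 separate ranges, with AMI-5 highest, AMI-1 between and control lowest. Of the 9 genes it was the only one whose AMI-1 libraries all lay above all control libraries, as did 1.94% of all genes tested. With AMI-5, NQO1 and HMOX1 were separated from control in that way, as were 3.98% of all genes. Group means were 123.1 ± 7.36 CPM with AMI-1, 154.4 ± 19.8 CPM with AMI-5 and 103.6 ± 11.3 CPM in control (SD, n = 3 each). The AMI-5 difference from control was 0.60, 0.63 and 0.49 in the pairs and 0.57 ± 0.06 in the fit (1.49-fold). For AMI-1 it was 0.33, 0.15 and 0.28 in the pairs and 0.25 ± 0.06 in the fit (1.19-fold, edgeR adjusted p = 0.0879).

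The call of NQO1 with AMI-1 turned on the setting. With GC correction the value was 0.25 with an adjusted p of 0.000384, and the gene also passed without AMI-1 replicate 2 (0.32, adjusted p = 0.0088) and without AMI-5 replicate 3 (0.26, adjusted p = 0.0307). Over the 9 fits without 1 library its adjusted p ran from 0.0088 to 0.507, and without the replicate block it did not pass. Treatment carried 78.8% of its variance between libraries, a share exceeded among the 9 by HMOX1 alone. An antisense gene that overlaps NQO1 exons (AC092115.2) had 7.63 ± 1.90 CPM with AMI-1, 10.7 ± 3.55 CPM with AMI-5 and 6.37 ± 2.29 CPM in control, and reads of the pair may not be separable.

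HMOX1 encodes haem oxygenase 1, which opens the haem ring to biliverdin, carbon monoxide and iron. It had 17.7, 15.2 and 13.9 CPM in AMI-1 replicates 1 to 3, 28.3, 56.6 and 29.9 CPM in AMI-5 replicates, and 18.1, 15.8 and 16.5 CPM in control replicates. All AMI-5 libraries lay above the other 6, and AMI-5 replicate 2 stood far above replicates 1 and 3. Means were 15.6 ± 1.96 CPM with AMI-1, 38.3 ± 15.9 CPM with AMI-5 and 16.8 ± 1.20 CPM in control (SD, n = 3 each). Against control the AMI-5 libraries differed by 0.64, 1.84 and 0.85 in the pairs and by 1.13 ± 0.23 in the fit (2.18-fold), the widest SE of the 9. Leaving out 1 library at a time moved this value between 0.77 and 1.36. With AMI-1 the pairs gave -0.03, -0.05 and -0.25 and the fit -0.13 ± 0.24 (edgeR adjusted p = 0.903), or 0.06 without AMI-1 replicate 2. Replicate number carried 4.78% of the variance of HMOX1 between libraries, treatment 79.5% and the rest 15.7%. Its transcript holds 58.1% GC.

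TXNRD1 and SRXN1 serve the protein thiol side of the response. TXNRD1, the cytosolic thioredoxin reductase, had 505.6, 606.7 and 581.9 CPM in AMI-1 replicates 1 to 3, 630.0, 863.3 and 675.8 CPM in AMI-5 replicates, and 537.0, 666.0 and 568.3 CPM in control replicates. The AMI-5 range lay above AMI-1 entirely and overlapped control, where replicate 2 was high. In pairs the AMI-5 difference from control was 0.23, 0.37 and 0.25, and the fit gave 0.29 ± 0.06 (1.22-fold), against -0.06 ± 0.06 for AMI-1 (edgeR adjusted p = 0.759). It was the most abundant of the 9 also per kilobase, at 132.0 CPM with AMI-1, 169.1 CPM with AMI-5 and 138.0 CPM in control, while SLC7A11 stood at 4.47 CPM per kilobase with AMI-1, 8.59 with AMI-5 and 4.27 in control.

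SRXN1, sulfiredoxin, which reduces overoxidised peroxiredoxins, did not share this pattern. It had 55.3, 54.6 and 48.7 CPM in AMI-1 replicates 1 to 3, 52.0, 60.1 and 51.9 CPM in AMI-5 replicates, and 54.6, 57.2 and 52.8 CPM in control replicates. The 3 groups overlapped fully, with an AMI-5 difference from control of -0.01 ± 0.07 and an AMI-1 difference of -0.06 ± 0.07 (edgeR adjusted p = 0.817). Treatment carried 8.61% of its variance, the lowest share of the 9.

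**Figure D2:**
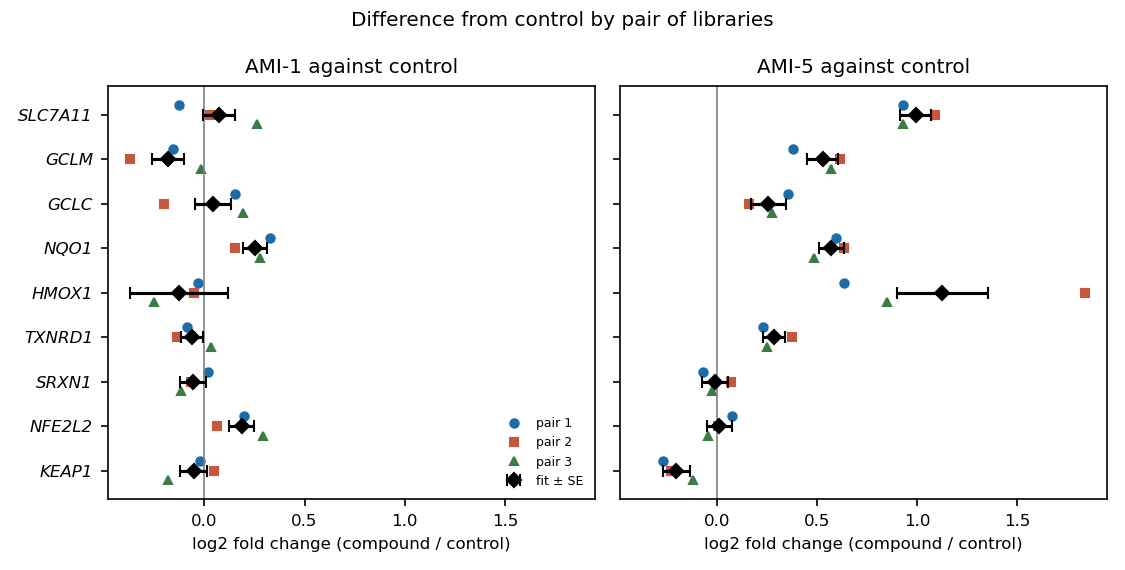
Log2 difference from the control library of the same replicate number for each gene, with AMI-1 and AMI-5 side by side; small points are the 3 pairs, large points with bars the fitted value ± SE. HMOX1 has the widest spread between AMI-5 pairs, 0.64 to 1.84, and SRXN1 and NFE2L2 lie near 0 with AMI-5.

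NFE2L2 and KEAP1 are the regulators among the 9. NFE2L2, the NRF2 gene, had 100.1, 135.3 and 118.3 CPM in AMI-1 replicates 1 to 3, 92.0, 129.8 and 93.7 CPM in AMI-5 replicates, and 87.2, 129.3 and 96.7 CPM in control replicates. The groups overlapped, and each AMI-1 library was above its control partner. The AMI-5 difference from control was 0.01 ± 0.06, and that of AMI-1 was 0.20, 0.07 and 0.29 in the pairs and 0.19 ± 0.06 in the fit (edgeR adjusted p = 0.270). GC correction brought the AMI-1 value to 0.18 with an adjusted p of 0.00763, and without AMI-1 replicate 2 it was 0.25 with an adjusted p of 0.0497. Exons of NFE2L2 overlap those of AGPS on the other strand, which had 129.1 ± 32.3 CPM with AMI-1, 125.7 ± 32.9 CPM with AMI-5 and 122.9 ± 37.3 CPM in control.

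KEAP1, the inhibitor, had 115.8, 76.0 and 91.8 CPM in AMI-1 replicates 1 to 3, 97.4, 62.9 and 95.8 CPM in AMI-5 replicates, and 117.4, 73.6 and 104.0 CPM in control replicates. Replicate 2 was its lowest library in every group, the reverse of SLC7A11, GCLM and GCLC, and replicate number carried 86.1% of its variance. Its AMI-5 difference from control was -0.27, -0.23 and -0.12 in the pairs and -0.20 ± 0.07 in the fit, and its AMI-1 difference was -0.05 ± 0.07 (edgeR adjusted p = 0.834). With GC correction the AMI-5 value became -0.05 ± 0.04. Its transcript holds 60.3% GC, and under the same correction NQO1 had 0.55 and HMOX1 1.25 with AMI-5.

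AMI-5 was also set directly against AMI-1, at the same dose and time and as a description. HMOX1 was higher with AMI-5 by 0.67, 1.89 and 1.10 on the log2 scale in the pairs and by 1.25 ± 0.23 in the fit, SLC7A11 by 0.92 ± 0.08 and GCLM by 0.71 ± 0.08. TXNRD1 differed by 0.35 ± 0.06, NQO1 by 0.32 ± 0.06 and GCLC by 0.21 ± 0.09, all of them higher with AMI-5 in 3 of 3 pairs. Ranges did not overlap for GCLM, NQO1, HMOX1 and TXNRD1, whereas those of SLC7A11 and GCLC did. The share of all genes separated in this way between AMI-5 and AMI-1 was not counted, so this stays a description. NFE2L2 ran the other way, -0.12, -0.06 and -0.34 in the pairs and -0.17 ± 0.06 in the fit. KEAP1 gave -0.15 ± 0.07 and SRXN1 0.05 ± 0.07, with pairs of both signs for each.

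Correlations were taken across libraries once the mean of each replicate number was taken off. The 9 libraries form 3 groups, AMI-1, AMI-5 and control. The AMI-5 results were known when the genes were chosen, so r between the chosen genes is a description only. Over these libraries TXNRD1 correlated at 0.99 with GCLM, 0.96 with SLC7A11 and 0.95 with HMOX1. SLC7A11 correlated at 0.90 with NQO1. SRXN1 correlated weakly, at 0.12 with SLC7A11, 0.06 with NQO1, 0.07 with GCLC and 0.33 with TXNRD1, and at most at 0.51, with HMOX1. KEAP1 ran opposite to SLC7A11, GCLC and NQO1, at -0.87 with SLC7A11, -0.90 with GCLC and -0.85 with NQO1. These r were taken without GC correction, which brought the AMI-5 difference of KEAP1 from control from -0.20 to -0.05. NFE2L2 lay between -0.52 and 0.08 with the other 8. Among 11505 genes with an average log2 CPM of at least 3, the pattern most like SLC7A11 was that of RABGGTB (r = 0.993), then FAM129A (0.991) and CENPH (0.989), whose AMI-5 log2 differences from control were smaller, at 0.33, 0.27 and 0.31. MANSC1 (0.990), COQ7 (0.987) and MOCS2 (0.978) were most like NQO1. Nearest to HMOX1 were MRPS33 (0.983), COQ5 (0.979) and CLDN1 (0.977), with AMI-5 differences of 0.18, 0.11 and 0.22 against 1.13 for HMOX1 itself. Their r describes a like order of libraries, not a like size of difference.

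Other genes of the pathway were counted in 8 lists that leave the 9 out and hold 160 distinct tested genes, 6 of them in more than 1 list. These lists, too, were drawn up with AMI-5 results of the same libraries known, so their calls with AMI-5 are no independent evidence. With AMI-5 14 of the 160 rose and 10 fell, and with AMI-1 3 rose and 0 fell, in the blocked edgeR fit. Over all 18284 genes tested that fit called 3.44% higher and 7.51% lower with AMI-5. With AMI-1 it called 0.23% higher and 0.18% lower. Counts of each list below are to be read beside these shares, and no list was tested as a set. The shares are those of the fit without GC correction. With that correction the fit called 2473 of all genes with AMI-5, both directions together, and shares by direction were not counted. Of 39 tested genes of glutathione synthesis, use and export 3 rose and 3 fell with AMI-5, with a median log2 fold change of 0.02, and 0 were called with AMI-1. CHAC1, a gamma-glutamylcyclotransferase that breaks glutathione down, rose to 8.40 ± 1.90 CPM with AMI-5, against 5.81 ± 1.57 CPM in control (0.55 ± 0.13, adjusted p = 0.0145). The glutathione transferase gene GSTM3 rose by 0.26 ± 0.07 (adjusted p = 0.0171), while GPX1, of glutathione peroxidase 1, changed by -0.28 ± 0.07 (adjusted p = 0.0176) and by -0.07 with GC correction (adjusted p = 0.366). Glutathione reductase, GSR, named after its values were seen, had 0.15 (adjusted p = 0.152). GC correction raised the count of this list to 8 rising, with 3 falling.

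Quinone, carbonyl and xenobiotic reductases, the group nearest to NQO1, had 4 rising and 2 falling of 17 tested with AMI-5 and 0 called with AMI-1. PIR, which encodes pirin, rose to 8.98 ± 1.09 CPM with AMI-5, against 6.04 ± 1.14 CPM in control (0.56 ± 0.13, adjusted p = 0.00974). TRIM16 rose by 0.38 ± 0.09 (adjusted p = 0.0168) and POR, the cytochrome P450 reductase gene, fell by 0.35 ± 0.08 on the log2 scale (adjusted p = 0.0131), with -0.19 under GC correction. In the thioredoxin and peroxiredoxin system 0 rose and 1 fell of 19 with AMI-5: TXNRD2, the mitochondrial thioredoxin reductase, had 44.9 ± 11.7 CPM with AMI-5, against 61.5 ± 14.3 CPM in control (-0.46 ± 0.09, adjusted p = 0.00346), the direction opposite to TXNRD1, and -0.27 with GC correction. With AMI-1 TXNIP, the thioredoxin-binding inhibitor, rose to 80.26 ± 10.05 CPM, against 61.39 ± 2.996 CPM in control (0.38 ± 0.07, adjusted p = 0.0129). Thioredoxin itself, TXN, and the peroxiredoxin gene PRDX1, named after their values were seen, had 0.10 and 0.13 with AMI-5 (adjusted p = 0.283 and 0.147).

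Haem and iron genes gave 1 rising of 23 with each compound and 0 falling. With AMI-5 it was FTL, the ferritin light chain, at 507.7 ± 100.2 CPM against 426.1 ± 81.2 CPM in control (0.25 ± 0.06, adjusted p = 0.0142). With AMI-1 it was TFRC, the transferrin receptor, at 394.0 ± 103.0 CPM against 305.5 ± 85.0 CPM in control (0.37 ± 0.05, adjusted p = 0.00206). Of 14 tested genes of NADPH supply ME1, malic enzyme 1, rose by 0.25 ± 0.06 with AMI-5 (adjusted p = 0.0193; 0.15 with GC correction) and NADK, NAD kinase, fell by 0.34 ± 0.06 (adjusted p = 0.00336). Among 9 superoxide and peroxide genes CAT, catalase, rose by 0.24 ± 0.07 (adjusted p = 0.0317) and POR fell. Of 20 NRF2 partners and regulators 0 rose and 3 fell with AMI-5. Among them MAFK, a small MAF partner, changed by -0.34 ± 0.09 (adjusted p = 0.0193) and NFE2L1, the NRF1 gene, by -0.17 ± 0.05 (adjusted p = 0.0495). GC correction ended the calls of MAFK (-0.16, adjusted p = 0.0796) and NFE2L1 (-0.08, adjusted p = 0.110), and with it 2 genes of that list rose and 0 fell.

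SLC7A11 and CHAC1 are also targets of ATF4, the factor of the amino acid response, so that list was read beside them. With AMI-5 6 of 25 rose and 0 fell, with a median of 0.15, and 12 rose and 1 fell with GC correction. CHAC1 is among the 6, so its call counts both here and in the glutathione list. ASNS, asparagine synthetase, rose to 40.1 ± 7.58 CPM with AMI-5, against 22.6 ± 5.45 CPM in control (0.84 ± 0.08, adjusted p = 8.96e-06). The serine synthesis genes PSAT1 and PHGDH rose by 0.47 ± 0.06 (adjusted p = 0.000325) and 0.32 ± 0.07 (adjusted p = 0.0053). With AMI-1 STC2, a secreted glycoprotein gene, rose alone of the 25, to 209.3 ± 51.7 CPM, against 148.9 ± 12.35 CPM in control (0.47 ± 0.08, adjusted p = 0.00761), and with GC correction the value was 0.49 but no longer passed (adjusted p = 0.209). Of the 19 genes named from the 8 lists, ASNS and PSAT1 kept their calls in all 9 fits without 1 library. Each of the rest lost its call in at least 1 of those fits, with a highest adjusted p of 0.0616 for TFRC, 0.0675 for PHGDH, 0.0755 for TXNRD2 and 0.0763 for NADK, and of 0.107 to 0.452 for the others.

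**Figure D3:**
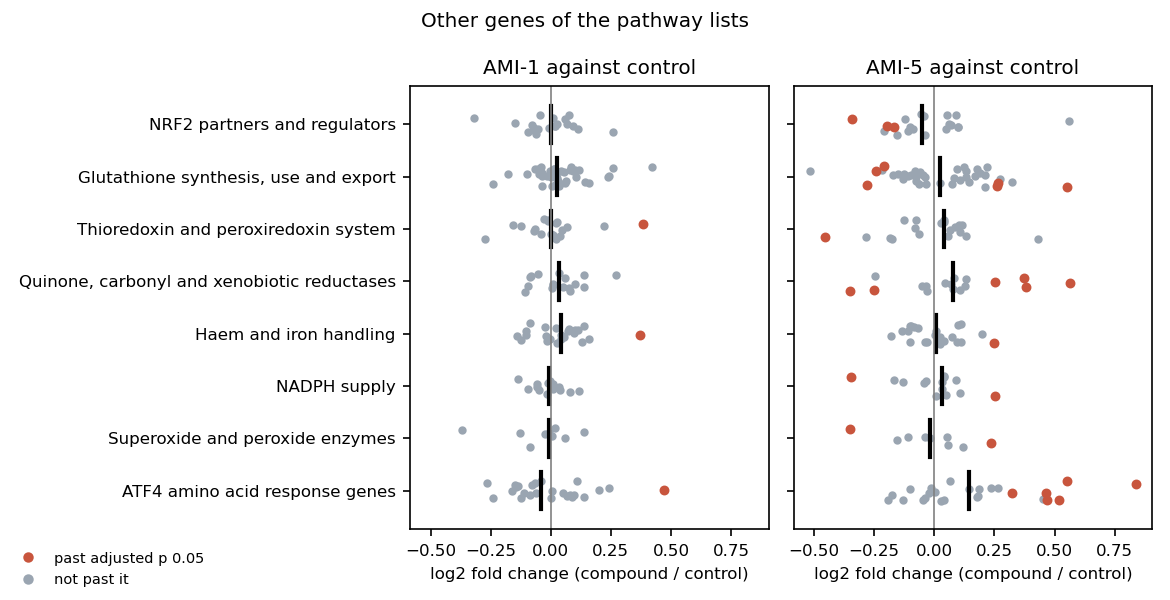
Log2 fold change of the tested genes in each of the 8 pathway lists, AMI-1 against control and AMI-5 against control; each point is a gene, red points are past an adjusted p of 0.05 and bars are list medians. List medians lie between -0.05 and 0.15 with AMI-5, highest for the ATF4 list, and most genes are not called.

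Settings moved the 9 genes unequally. Over the fits with 1 library left out, the AMI-5 difference from control stayed between 0.92 and 1.08 for SLC7A11, 0.52 and 0.63 for NQO1, 0.43 and 0.60 for GCLM, 0.22 and 0.33 for TXNRD1, 0.21 and 0.35 for GCLC, and -0.28 and -0.16 for KEAP1. The plot of values by setting shows that dropping the block changed these estimates little, while the SEs widened. The SE of GCLM went from 0.08 to 0.29, that of NQO1 from 0.06 to 0.13 and that of HMOX1 from 0.23 to 0.26. Without the block the AMI-5 difference of GCLC was 0.25 with an SE of 0.25. That of KEAP1 was -0.20 with an SE of 0.24.

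**Figure D4:**
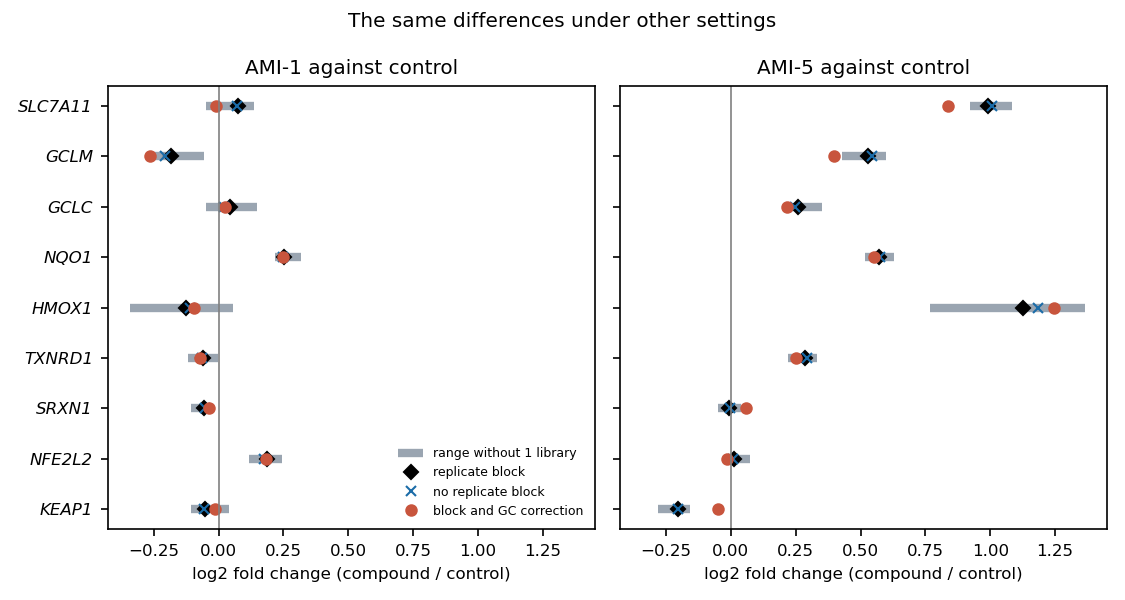
Log2 fold change of each gene against control under the blocked fit, the fit without the replicate block and the blocked fit with GC correction, for AMI-1 and AMI-5; grey lines span the 9 fits that leave out 1 library. SLC7A11 and GCLM come out lower and HMOX1 higher with GC correction on the AMI-5 side, and KEAP1 moves towards 0.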

How the data were processed

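Poly-A RNA of 9 libraries was analysed. The authors deposited raw read counts per gene in a table per compound, each with the controls. BWA, bedtools and the build hg19 are named per the submitters' processing notes, with versions, gene annotation and strand setting not given in the sources used here. The tables hold 18385 and 18598 genes with a mean count of at least 10, and control counts were identical in them (0 values differed). Genes in both tables were filtered with filterByExpr, leaving 18284, and fitted with edgeR 4.0.16 in R 4.3.3 (TMM, robust quasi-likelihood F test, group and replicate number, Benjamini-Hochberg over all genes tested). CPM are TMM-scaled, log2 CPM used a prior count of 2, and SEs are those implied by the F test. The fit was tested on simulated data. Pairing was checked by the correlations in the report, all 9 same-numbered pairs being positive, but the labels do not say what a number stands for.

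GC correction took off, per library, a lowess trend (span 0.3) in log2 CPM deviations along the GC content of the longest GENCODE v29 transcript, known for 17824 genes tested (97.5%). Other alternatives were no block, DESeq2 1.42.0, DESeq2-style size factors, no filter, only the groups compared, a non-robust fit, and leaving out each library or replicate number. The genes and lists were chosen with earlier results of these data known. Named list genes are up to 3 per list and comparison with the lowest adjusted p past 0.05 where the higher group averaged 5 CPM or more. Pattern likeness is Pearson's r of log2 CPM minus the mean of its replicate number, 3 genes each for SLC7A11, NQO1 and HMOX1. The result of 1 gene that this rule names is not reported here. List genes not among the genes of both tables were not analysed here.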

Additional observations from a re-analysis of the deposited data

Results flagged for a closer look

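GCLM and HMOX1 went in opposite directions with the compounds in every pair of libraries: all 3 AMI-5 libraries were above their control partner and all 3 AMI-1 libraries below it. The AMI-5 minus AMI-1 difference was 0.71 on the log2 scale for GCLM and 1.25 for HMOX1. Neither difference was tested, since the genes were chosen with the AMI-5 values known, and the AMI-1 side alone was not past the threshold in the blocked edgeR fit (adjusted p = 0.461 and 0.903). For GCLM the pair of replicate 3 was close to 0 with AMI-1 (-0.02), and for HMOX1 the pairs of replicates 1 and 2 were (-0.03 and -0.05). Without AMI-1 replicate 2 the fitted AMI-1 value of HMOX1 was 0.06, of the other sign.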

How the results depend on the processing

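Without the replicate block edgeR called 0 genes with AMI-1 and 0 with AMI-5, 0 of the 9 genes with AMI-1, and 0 and 0 of the 160 other pathway genes with AMI-1 and AMI-5; DESeq2 without it called 3, 19, 0, 0 and 0. The blocked fit called 75, 2002, 0, 3 and 24. GC correction gave 633 genes with AMI-1 and 2473 with AMI-5. It gave 3 of the 9 with AMI-1 (GCLM lower, NQO1 and NFE2L2 higher), and 6 and 40 of the other pathway genes. A fit of control and AMI-5 libraries only gave 4372 genes and 44 of the other pathway genes. Leaving out 1 library or replicate number gave 1 to 354 genes with AMI-1 and 24 to 4283 with AMI-5, 0 to 2 of the 9 with AMI-1, and 0 to 5 and 2 to 42 of the others; without replicate 1 the counts were lowest (1, 24, 0, 0 and 2). NQO1 also passed with AMI-1 without replicate 2 (0.31, adjusted p = 0.0251) and replicate 3 (0.25, adjusted p = 0.0326). Without AMI-5 replicate 3 the AMI-5 difference of KEAP1 was -0.28. Among the 9 genes' differences in 3 comparisons, recomputed under 20 alternatives, 519 kept their call or, where untested, moved by less than the SD of the 3 pairs, 4 moved by more and 8 came to pass the threshold. With AMI-1 9 values that were not past the threshold changed sign: 3 of SLC7A11 (-0.0091 with GC correction; -0.048 to 0.15 over the fits without a library or replicate number), 3 of GCLC (-0.053 to 0.18), 1 of HMOX1 (-0.34 to 0.056, above 0 without AMI-1 replicate 2) and 2 of KEAP1 (-0.11 to 0.039). With AMI-5 SRXN1 changed sign in 6 settings and NFE2L2 in 5, all near 0. The cause was not tested. The lowest level among the 9 genes was 13.9 CPM, of HMOX1 in AMI-1 replicate 3.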
